A study of Mus musculus with 41 samples.

Results

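The AP-1 transcription factor genes Fos, Fosb, Fosl1, Fosl2, Jun, Junb, Jund, Atf3, Batf and Maff were followed through irradiated and untreated myeloid cells of a mouse rectal tumour. They were chosen by gene symbol, as Fos, Jun, Atf3, Batf and Maf family members, and all 10 were found among the 55453 genes of the authors' deposited tables. The family and the related gene lists were chosen with earlier results of these data known. Their shares beside those of all genes are therefore descriptions alone. MC38-luc, a mouse colon carcinoma line carrying luciferase, was implanted orthotopically in the rectum of female C57BL6 mice, whose age is not given in the sources used here. Irradiated tumours received 5 daily fractions of 5 Gy on days 9 to 13, untreated tumours (UT) received none, and both were harvested on day 14, 1 day after the last fraction. From CD45+ CD11b+ cells, 3 subsets were sorted: tumour-associated macrophages (TAM), which were F4/80+ and had neither Ly6C nor Ly6G; Ly6C+ Ly6G- cells, the inflammatory monocytes; and granulocytes, positive for both Ly6C and Ly6G. For TAM there were 5 untreated and 10 irradiated libraries, for inflammatory monocytes 5 and 9, and for granulocytes 5 and 7, 1 library per tumour and subset. The model rests on a single tumour line.

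AP-1 is a family of dimers built from basic leucine zipper (bZIP) proteins. Fos proteins need a Jun partner to bind DNA, whereas Jun proteins can also pair with each other. Most of these genes are immediate early genes, which MAP kinase signalling switches on within minutes, whose mRNAs are short-lived, and which respond to growth factors, cytokines, cell stress and DNA damage. In macrophages and neutrophils AP-1 acts beside NF-kB at genes of inflammation. Such genes are also known to be switched on while cells are released from a tissue and sorted.

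The values are those of the authors' deposited table for each subset. Single libraries were not analysed here. Each table gives a mean normalised count over libraries, which is the same in all 3 tables and so describes no single subset. It also gives a log2 fold change (irradiated over untreated), a Wald statistic, which is an effect divided by its standard error, and an adjusted p from DESeq2. A gene was called at an adjusted p under 0.05, and "rose" and "fell" are used of called genes alone. Mean normalised counts of the AP-1 genes ran from 161 for Fosl1 to 105419 for Junb in the authors' deposited table, and all 10 had an adjusted p in all 3 comparisons. Fold changes divided by their Wald statistics give approximate standard errors on the log2 scale of 0.15 to 0.29 for TAM, 0.15 to 0.37 for inflammatory monocytes and 0.16 to 0.35 for granulocytes. These are too small wherever the deposited fold was shrunken towards 0. They also hold only if fold and Wald statistic come from the same estimate, which is not known. In these bulk samples a change in the makeup of the sorted cells and a change of mRNA per cell cannot be told apart, and without values of single libraries the labelled cell types could not be checked against their markers.

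To show the regulatory sequence of genes that the results turn on, the 250 bases before the start of Fos, Jun, Junb and Atf3 are given below from RefSeq (build GRCm38.p6; the authors' build was GRCm39). Each runs 5′ to 3′ on the gene's own strand, and capitals mark the matches described after the sequences. The stretches are chr12:85473640-85473889 (+) for Fos, chr4:95052223-95052472 (-) for Jun, chr8:84978749-84978998 (-) for Junb and chr1:191183334-191183583 (-) for Atf3.
Fos: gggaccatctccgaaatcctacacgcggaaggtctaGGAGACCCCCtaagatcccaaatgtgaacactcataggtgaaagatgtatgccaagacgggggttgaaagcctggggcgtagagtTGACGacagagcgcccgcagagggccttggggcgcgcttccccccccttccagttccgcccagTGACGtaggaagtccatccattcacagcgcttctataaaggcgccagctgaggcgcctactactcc
Jun: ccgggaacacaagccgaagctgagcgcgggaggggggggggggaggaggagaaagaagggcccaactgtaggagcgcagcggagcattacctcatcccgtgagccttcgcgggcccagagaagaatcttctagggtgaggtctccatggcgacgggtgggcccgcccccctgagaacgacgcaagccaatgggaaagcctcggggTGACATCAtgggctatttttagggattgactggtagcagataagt
Junb: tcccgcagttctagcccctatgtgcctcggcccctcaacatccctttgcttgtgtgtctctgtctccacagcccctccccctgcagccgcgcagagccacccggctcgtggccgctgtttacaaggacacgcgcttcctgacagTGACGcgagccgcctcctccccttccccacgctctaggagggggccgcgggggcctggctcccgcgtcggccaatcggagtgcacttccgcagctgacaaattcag
Atf3: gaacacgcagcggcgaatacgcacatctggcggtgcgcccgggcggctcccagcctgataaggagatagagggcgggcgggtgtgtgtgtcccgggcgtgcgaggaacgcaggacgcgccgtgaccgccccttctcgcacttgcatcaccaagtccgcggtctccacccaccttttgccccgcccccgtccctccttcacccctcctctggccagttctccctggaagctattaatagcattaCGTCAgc

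Promoters were found for 9 of the 10 members, all but Fosl1, and Maff had 3 starts, giving 11 stretches. They were searched on both strands for the AP-1 site TGANTCA, the cAMP response element TGACGTCA, the serum response element core and the NF-kB site. The wider form TGACNTCA, which includes TGACGTCA, and the shorter TGACG, which lies within TGACGTCA, were added after the letters had been read. TGACG stood in 7 stretches, those of Fos, Fosb, Junb, Atf3, Batf and 2 of Maff, against 17.8% of the 32851 promoters in the table. In Fos the nearer of its 2 matches lay 66 to 62 bases before the start, in Junb 106 to 102 and in Atf3 7 to 3. Jun held TGACATCA, a match to TGACNTCA, 45 to 38 bases before its start, and 2 Maff stretches held TGACNTCA (7.49% of all promoters). The full TGACGTCA occurred in 1 Maff stretch, 29 to 22 bases before that start (1.55% of all promoters). NF-kB matches stood in 4 stretches, of Fos, Fosb, Fosl2 and Maff (3.90% of all promoters). Within the 250 bases searched, no stretch held TGANTCA (6.75% of all promoters) or the serum response element core (1.47%). Sites farther upstream or after the start were not searched, so these genes may hold such sites elsewhere. These matches are letters in a window and no evidence of binding.

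The first comparison asked how AP-1 genes of TAM changed when the tumour had been irradiated. Of the 10 genes, 7 rose and none fell, while 13.9% of the 16851 genes tested rose and 12.5% fell (18.8% and 17.3% of the 10683 with a mean of 50 or more, as all AP-1 genes have). All 3 Jun genes, 3 of the 4 Fos genes and Atf3 rose, with log2 fold changes of 0.78 to 1.46 in the authors' deposited table. Fosl1, Batf and Maff did not pass, and at an unadjusted p under 0.05 the counts were 8 higher, with Maff, and 0 lower (10.6% and 9.41% of genes with a p-value). The median Wald statistic was 5.35 for the 10 genes and 0.14 for all genes tested, and the median log2 fold change was 0.90 against 0.03.

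Among Fos genes, Fos itself, the founding partner of Jun, had a log2 fold change of 1.18 in TAM, a 2.26-fold rise (Wald statistic 6.28, adjusted p = 2.0e-08 by DESeq2, in the authors' deposited table). Fosb, a close relative induced with it, had the largest fold of the family at 1.46 (Wald statistic 5.36, adjusted p = 2.3e-06 by DESeq2, in the authors' deposited table). Fosl2, which encodes FRA2, a Fos protein without the strong activation domain of Fos, had 1.18 (Wald statistic 5.47, adjusted p = 1.3e-06 by DESeq2, in the authors' deposited table). Fosl1, which encodes the related FRA1, stood apart at 0.11 (Wald statistic 0.41, adjusted p = 0.82 by DESeq2, in the authors' deposited table). Its approximate standard error was 0.26, and it was the 1 Fos gene that did not pass in TAM.

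Junb, the Jun protein that often restrains Jun activity, had the largest Wald statistic of the family in TAM, 6.46, with a log2 fold change of 1.08 (adjusted p = 7.2e-09 by DESeq2, in the authors' deposited table). By Wald statistic Junb held rank 107 and Fos rank 126 of the 16851 genes tested, counted from the highest. Jund, the most steadily expressed Jun gene in many tissues, had 1.00 (Wald statistic 5.33, adjusted p = 2.6e-06 by DESeq2, in the authors' deposited table). For Jun, the main activating partner, the authors' deposited table gives a smaller fold of 0.80 with a similar Wald statistic of 5.37 (adjusted p = 2.2e-06 by DESeq2). Jun, Fosb, Fosl2 and Jund held ranks from 230 to 269, so the 3 Jun genes and the 3 Fos genes that rose all lay within the top 1.6% of Wald statistics.

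Atf3, a stress-induced factor that can repress cytokine genes, had a log2 fold change of 0.78 in TAM (Wald statistic 4.49, adjusted p = 0.00010 by DESeq2, in the authors' deposited table). Maff, a small Maf protein without an activation domain of its own, had 0.44 (Wald statistic 2.00, adjusted p = 0.13 by DESeq2, in the authors' deposited table). The authors' deposited table gives Batf, which pairs with Jun proteins and IRF factors in lymphocytes and dendritic cells, 0.07 (Wald statistic 0.24, adjusted p = 0.90 by DESeq2). The plot of fold changes by gene and subset shows these 10 values beside those of the other 2 subsets.

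**Figure D1:**
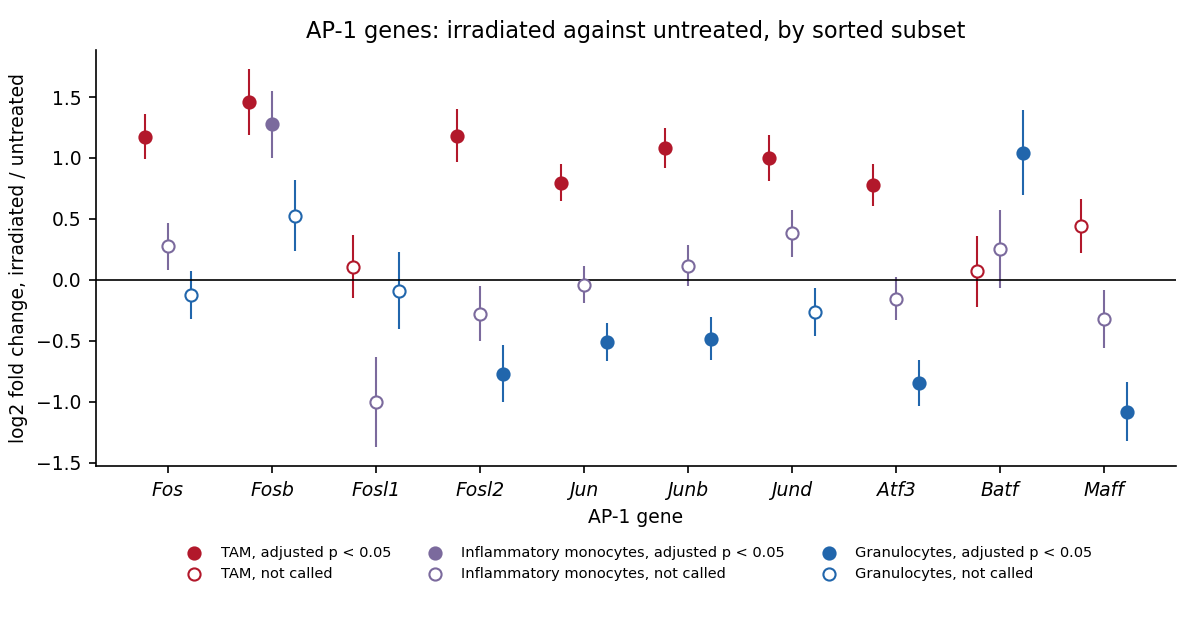
Log2 fold change of each AP-1 gene (vertical axis, irradiated over untreated) in TAM (red), inflammatory monocytes (purple) and granulocytes (blue), from the authors' deposited tables. Filled points have an adjusted p under 0.05, open points do not, and bars are the approximate standard error (fold over Wald statistic). Red points lie highest for every gene but Batf, and 7 are filled above 0, while 5 blue points are filled below 0.

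All 7 calls in TAM held at an adjusted p under 0.01 and after re-centring on the median gene; Jun and Atf3 were lost when a change of at least 1 on the log2 scale was also required, which left 5. When Wald statistics were divided by their robust SD over genes whose mean was 50 or more, which was 2.72, none of the 10 passed, and neither did any other gene.

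Genes around AP-1 were counted in TAM from lists of its partners, inputs and targets. For comparison, 18.8% of all genes with a mean of 50 or more rose in TAM and 17.3% fell. Of 19 tested bZIP partners, 10 rose and 1 fell (median Wald statistic 2.52). In the authors' deposited table Cebpb, which drives inflammatory genes, had a log2 fold change of 1.05 and Nfe2, a partner of small Maf proteins, 1.64. Of 16 MAP kinase genes, 4 rose and none fell (2 rose after re-centring on the median gene), and the 3 with the smallest p were Map2k1 (0.44), Map3k8 (0.64) and Map3k1 (0.40) in the authors' deposited table. Of 11 SRF, ternary complex and CREB factors, with cofactors counted among them, 3 rose: Elk3 (0.86), Crtc3 (0.64) and Mrtfa (0.59) in the authors' deposited table. Whether these genes bear on Fos in TAM was not tested. Of 5 genes for the turnover of Jun and Fos proteins, 3 rose: Trib1 (1.22), Itch (0.54) and Fbxw7 (0.53) in the authors' deposited table. The last 2 encode ubiquitin ligases that mark Jun for degradation.

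Of 17 described AP-1 target genes, 9 rose and 2 fell in TAM (median log2 fold change 0.71). In the authors' deposited table the 3 with the smallest p were Il1b, a proinflammatory cytokine (1.50), Vegfa, an angiogenic factor (1.50), and Ptgs2, the inducible cyclooxygenase (1.23). Those that fell were Ccnd1, a cyclin of G1 phase (-1.16), and Plau, the urokinase gene (-1.17), in the authors' deposited table. They are outside the naming rule and were named after their values were seen. Of 22 other immediate early genes, 18 rose and 1, Myc, fell, with a median log2 fold change of 1.10. Dusp1, the phosphatase that switches off JNK and p38, had 1.83, Ier5 1.43 and Zfp36, which speeds the decay of AU-rich mRNAs, 1.26 in the authors' deposited table. Myc had -1.19 in the authors' deposited table and was also named after its value was seen.

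Cell type markers, those of macrophages among them, were also counted in TAM, where 13.9% of all genes tested rose and 12.5% fell. Means were under 50 for 8 of 10 T and NK cell markers and 5 of 8 epithelial or tumour cell markers. Counts of 1 or 2 genes are not read as a change of a cell type. Positive Wald statistics passed in 11 of 13 neutrophil markers, of which 4, such as Ngp, carry a negative deposited fold (Ngp had a Wald statistic of 9.20 beside -0.59 in the authors' deposited table). Classical monocyte markers rose in 5 of 9 cases, eosinophil markers in 4 of 6, macrophage markers in 4 of 12 and epithelial or tumour cell markers in 2 of 8 (0 after re-centring on the median gene). Dendritic cell markers fell in 5 of 10 cases, fibroblast markers in 3 of 8, T and NK cell markers in 2 of 10 and B and plasma cell markers in 1 of 7. Of 12 heat shock genes, which are also induced when cells are released from tissue, none rose and 2 mitochondrial chaperone genes fell, Hspd1 (-0.99) and Hspe1 (-1.01) in the authors' deposited table. At an unadjusted p under 0.05 by DESeq2, 0 heat shock genes were higher and 3 lower. The part of these cell types, or of cell handling, in the AP-1 result was not tested.

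In inflammatory monocytes, the Ly6C+ cells that can mature into TAM, the same question gave 1 AP-1 gene that rose, Fosb, and none that fell. Over all 14506 genes tested, 4.13% rose and 1.77% fell (4.8% and 2.3% of those with a mean of 50 or more). Fosb had a log2 fold change of 1.28, a 2.42-fold rise (Wald statistic 4.61, adjusted p = 0.00047 by DESeq2, in the authors' deposited table). It held rank 101 of 14506 by Wald statistic. At an unadjusted p under 0.05 the counts were 2 higher, Fosb and Jund, and 1 lower, Fosl1 (6.02% and 3.81% of genes with a p-value).

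The other Fos genes had log2 fold changes of 0.27 (Fos), -0.28 (Fosl2) and -1.004 (Fosl1) in the authors' deposited table for inflammatory monocytes. Fosl1 was the lowest of the family there, and it did not pass (Wald statistic -2.71, adjusted p = 0.083 by DESeq2, in the authors' deposited table). Jun genes had -0.04 (Jun), 0.12 (Junb) and 0.38 (Jund), with adjusted p-values of 0.93, 0.77 and 0.24 by DESeq2 in the authors' deposited table. Atf3 had -0.16, Batf 0.25 and Maff -0.32, with adjusted p-values from 0.50 to 0.73 by DESeq2 in the authors' deposited table. The median Wald statistic was 0.22 for the 10 genes and 0.11 for all genes tested. After division by a robust SD of 1.56, none of the 10 passed, while 20 higher and 5 lower genes did among all tested.

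In inflammatory monocytes, of 18 bZIP partners 1 rose, Creb5, a partner of Jun (0.88 in the authors' deposited table), and of 16 MAP kinase genes 1 rose, Map3k8 (0.77 in the authors' deposited table). For comparison, 4.8% of all genes with a mean of 50 or more rose there and 2.3% fell. None of 11 SRF, ternary complex and CREB factors and none of 5 turnover genes passed by DESeq2, nor did any at an unadjusted p under 0.05. The members with the highest mean count were Crem, with a log2 fold change of -0.55, and Trib1, with -0.11, in the authors' deposited table. Of 17 AP-1 targets, Mmp13, a collagenase (1.69), and Mmp14, a membrane-bound protease (0.71), rose and Hmox1, haem oxygenase 1 (-1.16), fell in the authors' deposited table. Of 22 other immediate early genes 1 rose, Klf2, a quiescence factor (0.77 in the authors' deposited table). Of 12 heat shock genes the stress-inducible Hspa1b (-2.04) and Hspa1a (-1.49) fell and none rose in the authors' deposited table. Macrophage markers rose in 8 of 12 cases, neutrophil markers in 7 of 13, eosinophil markers in 2 of 6 and B and plasma cell markers in 1 of 6. No classical monocyte (9 tested), dendritic cell (9), T and NK cell (10), epithelial (8) or fibroblast (7) marker passed by DESeq2. At an unadjusted p under 0.05, 1 classical monocyte and 3 epithelial markers were higher and 3 T and NK cell markers lower. Whether these cells bear on the AP-1 values was not tested.

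In granulocytes 5 AP-1 genes fell, Atf3, Maff, Fosl2, Jun and Junb, and 1 rose, Batf. Over all 15679 genes tested, 9.9% fell and 7.32% rose (12.1% and 9.51% of those with a mean of 50 or more). The counts at an unadjusted p under 0.05 were also 5 lower and 1 higher (8.61% and 6.8% of genes with a p-value). The median Wald statistic was -2.03 for the 10 genes and -0.14 for all genes tested, and the median log2 fold change was -0.37 against -0.03.

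Atf3 had a log2 fold change of -0.85, so that its level was 1.80-fold lower after irradiation (Wald statistic -4.55, adjusted p = 0.00022 by DESeq2, in the authors' deposited table). Maff had the largest fold of the family in granulocytes, -1.08 or 2.12-fold lower (Wald statistic -4.50, adjusted p = 0.00026 by DESeq2, in the authors' deposited table). These 2 genes were at ranks 220 and 232 from the lowest of 15679 Wald statistics. Fosl2 had -0.77 (Wald statistic -3.34, adjusted p = 0.0094 by DESeq2, in the authors' deposited table). The falls of the Jun genes were smaller, with -0.51 for Jun (Wald statistic -3.21, adjusted p = 0.013 by DESeq2) and -0.48 for Junb (Wald statistic -2.71, adjusted p = 0.042 by DESeq2) in the authors' deposited table.

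Batf went the other way in granulocytes, with a log2 fold change of 1.04 or 2.06-fold higher (Wald statistic 2.98, adjusted p = 0.023 by DESeq2, in the authors' deposited table). Fos, in spite of its rise in TAM, had -0.13 (Wald statistic -0.64, adjusted p = 0.72 by DESeq2, in the authors' deposited table). The remaining log2 fold changes were 0.53 for Fosb, -0.27 for Jund and -0.09 for Fosl1 in the authors' deposited table, with adjusted p-values of 0.21, 0.39 and 0.89 by DESeq2. At an adjusted p under 0.01, 3 AP-1 genes were called lower (Fosl2, Atf3 and Maff) and none higher, where 5.41% of all genes tested were called lower and 3.64% higher. When a change of at least 1 on the log2 scale was also required at 0.05, Maff (lower) and Batf (higher) were left, where 4.75% of all genes were called lower and 2.63% higher. After division by a robust SD of 2.09 none of the 10 passed, and neither did any other gene.

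**Figure D2:**
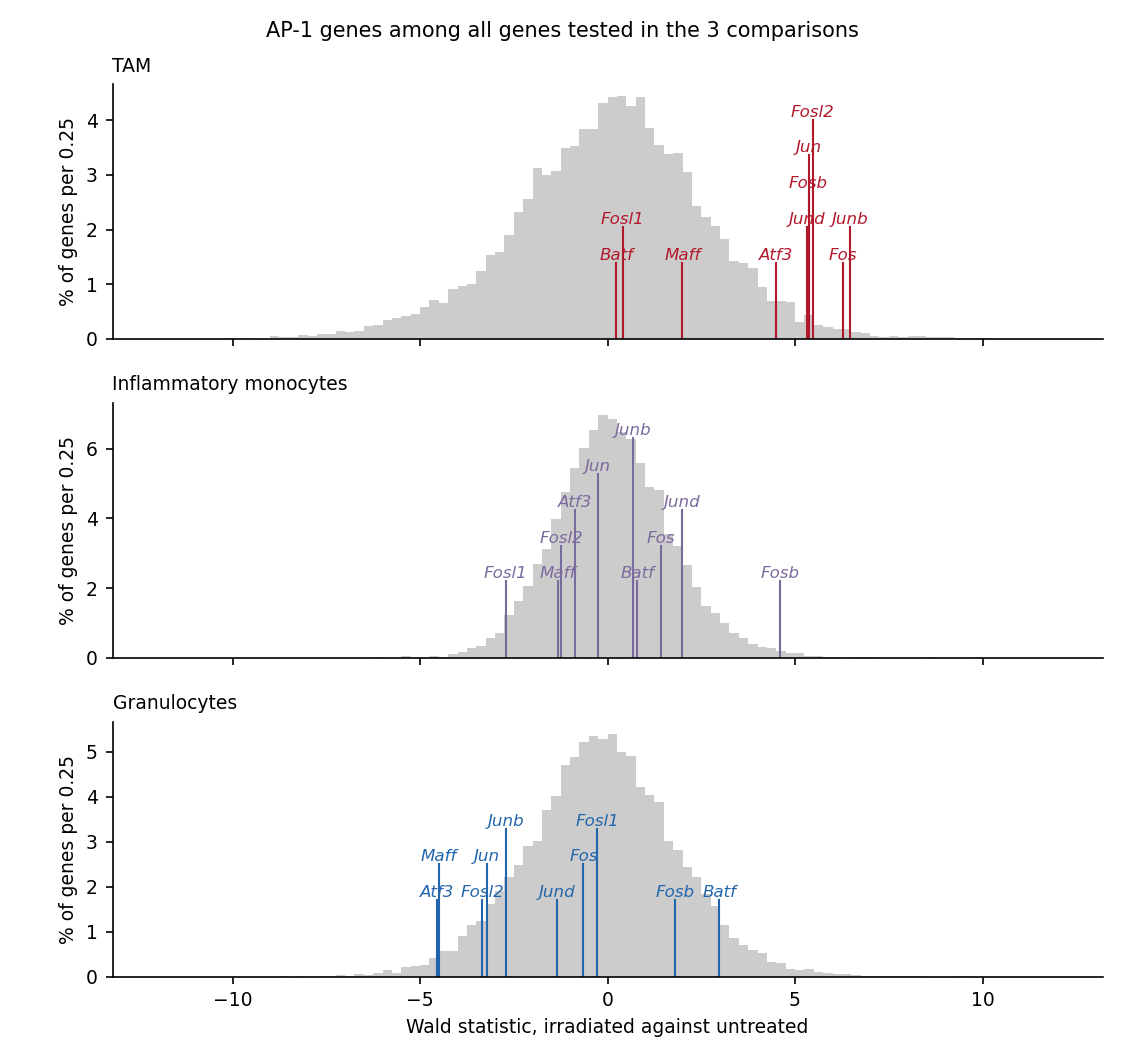
Histograms of the Wald statistic (horizontal axis) over the genes tested in all 3 comparisons, as the percentage of genes per bin of 0.25, with the AP-1 genes marked by lines whose height has no meaning. In TAM 7 AP-1 genes stand in the right tail, between 4.49 and 6.46. Fosb alone stands there for inflammatory monocytes, at 4.61, and in granulocytes Atf3 and Maff stand in the left tail at -4.55 and -4.50.

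Around AP-1 in granulocytes, where 12.1% of all genes with a mean of 50 or more fell and 9.51% rose, 3 of 19 bZIP partners fell and 1 rose. Among those that fell, the authors' deposited table gives Mafk, a small Maf gene, -0.82 and Cebpb -0.69. Of 16 MAP kinase genes 1 fell, Map2k4, a kinase upstream of JNK (-0.74 in the authors' deposited table). Of 11 SRF, ternary complex and CREB factors 2 rose and 2 fell, and the 3 with the smallest p were Elk3 (0.61), Mrtfb (0.77) and Crem, whose products include a repressor of cAMP response (-0.99), in the authors' deposited table. Of 5 turnover genes 1 fell, Trib1 (-0.57 in the authors' deposited table).

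Of 17 AP-1 targets in granulocytes, 3 rose and 4 fell. Mmp14 had 0.87, Plaur, the urokinase receptor gene, -1.12 and Cd44, an adhesion receptor, -0.74 in the authors' deposited table. Of 22 other immediate early genes 5 fell and 1 rose. Socs3, a feedback inhibitor of cytokine signalling, had -1.16, Ppp1r15a, a stress-response phosphatase subunit, -0.96 and Klf4 1.08 in the authors' deposited table. Of 12 heat shock genes 4 fell and none rose, among them Hspe1 (-0.77), Dnaja1 (-0.73) and Dnajb1 (-0.45) in the authors' deposited table. For the markers, the shares over all genes tested in granulocytes were 7.32% higher and 9.9% lower. Macrophage markers rose in 6 of 12 cases, classical monocyte markers in 3 of 9, and neutrophil (13 tested), eosinophil (6) and B and plasma cell (7) markers in 1 each. Fibroblast markers fell in 3 of 8 cases and T and NK cell markers in 2 of 10. No dendritic cell (10 tested) or epithelial (8) marker passed by DESeq2, and 1 epithelial marker was higher at an unadjusted p under 0.05. The part of these cell types in the AP-1 values was not tested.

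**Figure D3:**
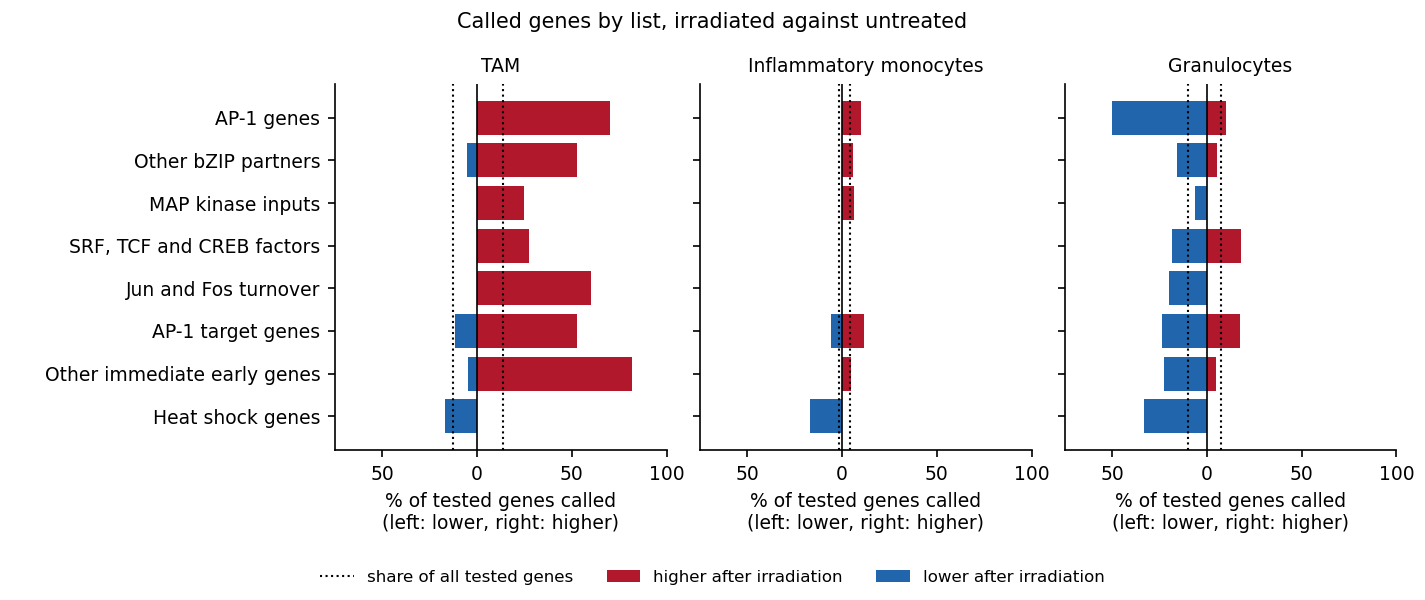
Share of tested genes called higher (red, to the right) and lower (blue, to the left) after irradiation in each gene list, for TAM, inflammatory monocytes and granulocytes, with dotted lines at the shares of all genes tested. AP-1 genes reach 7 of 10 higher in TAM and 5 of 10 lower in granulocytes, and heat shock genes have no red bar in any subset.

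The 3 comparisons were set side by side because libraries of the subsets came in part from the same tumours, with all 3 subsets from 11 of 15. Atf3, Fosl2, Jun and Junb rose in TAM and fell in granulocytes, which 193 of the 14506 genes tested in all 3 comparisons did (1.33%). Opposite effects were tested with the larger of both p-values, adjusted by Benjamini-Hochberg over all 15679 genes tested in both. Atf3 passed with an adjusted p = 0.016, with log2 fold changes of 0.78 in TAM and -0.85 in granulocytes in the authors' deposited table. It was 1 of 15 genes that passed (0.0957%). Fosl2 (0.20), Jun (0.27) and Junb (0.60) had adjusted p-values above the threshold in this test. At an unadjusted p under 0.05, 5 AP-1 genes were opposite, with Maff as the fifth (3.12% of genes). Between TAM and inflammatory monocytes 0 passed, with 0 at an unadjusted p under 0.05 (0.91% of genes), and likewise between inflammatory monocytes and granulocytes (0.455% of genes). No gene at all passed this test in either of those pairs.

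Each AP-1 gene but Fosl1 and Batf had its highest Wald statistic in TAM, its middle value in inflammatory monocytes and its lowest in granulocytes. That order held for 8 of 10 AP-1 genes and for 22.8% of the 14506 genes. For Fosl2, the widest case, log2 fold changes ran from 1.18 in TAM through -0.28 to -0.77, a difference of 1.95 between TAM and granulocytes. For Atf3 the difference was 1.63, for Junb 1.57, for Maff 1.52, for Jun 1.31 and for Fos 1.30. Fosb had positive values throughout, 1.46, 1.28 and 0.53, and was the 1 AP-1 gene that rose in both TAM and inflammatory monocytes (2.39% of genes did so). Fosl1 was called in none of the 3 subsets, as were 59.2% of genes. Differences between subsets in effects of the same direction were not tested, because the deposited folds come without a standard error.

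**Figure D4:**
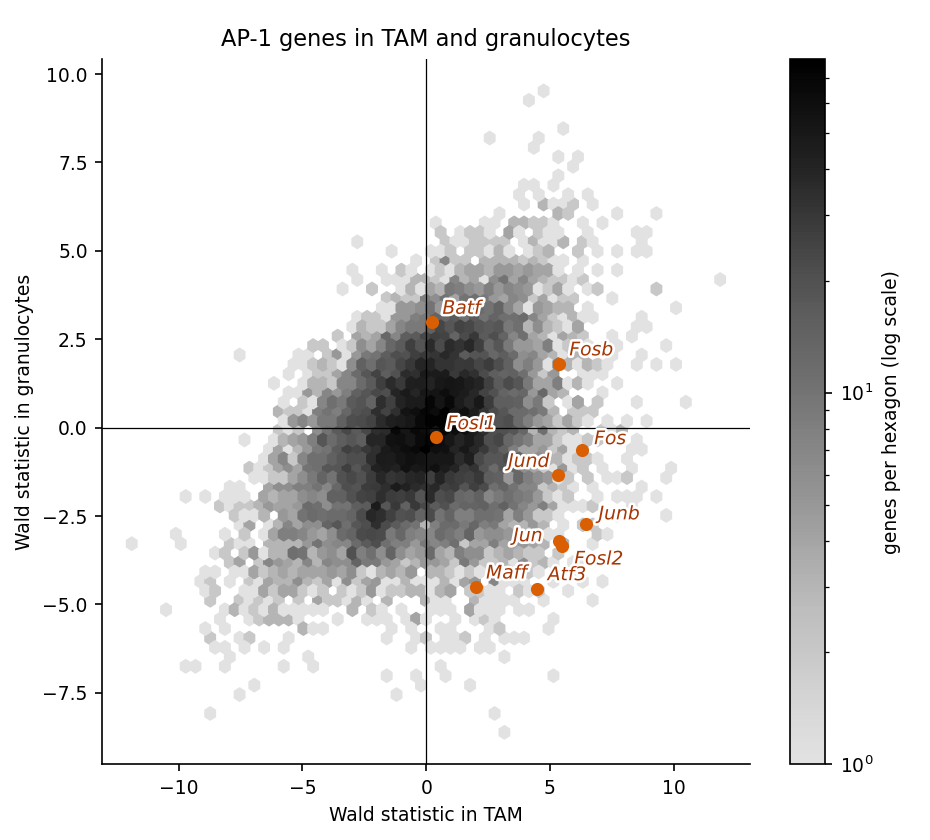
Wald statistic in TAM (horizontal axis) against that in granulocytes (vertical axis) for the genes tested in all 3 comparisons, shaded by the number of genes per hexagon on a log scale, with AP-1 genes in orange. Fosl2, Jun, Junb and Atf3 lie at the lower right, where 193 genes were called higher in TAM and lower in granulocytes, and Batf and Fosb lie above 0 on the vertical axis.

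The genes most like Fos and Jun were taken as those with the smallest distance over the 3 Wald statistics, among genes whose mean was 50 or more. For Jun they were Ier3, an immediate early stress gene (distance 0.40), Csf2rb, the shared receptor chain for GM-CSF and interleukin 3 (0.55), Pde4b, a cAMP phosphodiesterase (0.56), and Cd53, a tetraspanin of leukocytes (0.58). Ier3 had log2 fold changes of 1.10 in TAM, -0.12 for inflammatory monocytes and -0.78 in granulocytes in the authors' deposited table. For Fos they were Atf7ip, a cofactor of histone methylation (0.59), Cnppd1 (0.64), Mdm4, an inhibitor of p53 (0.64), and Tut4, an RNA uridylyltransferase (0.66). Atf7ip had 1.12, 0.18 and -0.17 in the authors' deposited table. Likeness over 3 values is a description alone.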

How the data were processed

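The submitters' processing notes name DESeq2 1.28.1, R 4.0.2, STAR 2.7.6a and fastp 0.20.1, with build mm39 (GRCm39). Per the labels' protocols, libraries were made with Nextera XT from picogram amounts of cDNA. How reads were counted, and on which annotation and strand, is not given in the sources used here, so overlapping genes may share reads. The deposited mean normalised count is a signal averaged by the authors over libraries. The authors deposited log2 fold changes, taken here to be shrunken because some lie near 0 beside a large Wald statistic. The authors also deposited the Wald statistic, a score whose sign gave the direction. The p-values deposited by the authors equal its two-sided normal p within 0.0021 on the log10 scale, and their adjusted p-values are absent for low means. Library depth is unknown and no SD can be given. The p-values are those of the authors' fit. Mean counts are the same in all comparisons, so that fit may have held the libraries of all subsets together. Subsets share tumours, and whether the fit took account of that is not known. The p-values therefore cannot be read as measuring the spread between tumours within a subset alone.

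Lists were described by counts and medians, without set tests. Named genes were all members, up to 3 called genes with the smallest adjusted p per related list, and 4 nearest genes each for Fos and Jun. Where no gene of a related list passed, the gene with the highest mean normalised count was named, a mean that describes no single subset. The rule also took 1 called gene per marker list; marker lists are given as counts, with Ngp named. A gene that the rule takes is not reported here. Members and lists were chosen with earlier results of these data known. The test of opposite directions and Benjamini-Hochberg calls were tested on simulated Wald statistics. Promoters came from RefSeq, GRCm38.p6. The computations used Python 3.11.15, pandas 2.3.3, numpy 2.4.6, scipy 1.17.1 and matplotlib 3.10.9.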

Additional observations from a re-analysis of the deposited data

Results flagged for a closer look

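Atf3 is the AP-1 gene that passed the test of opposite directions between 2 subsets. Its log2 fold change was 0.78 in TAM and -0.85 in granulocytes in the authors' deposited table, and the test of opposite directions gave an adjusted p of 0.016 over 15679 genes (Benjamini-Hochberg on the larger of both DESeq2 p-values). In inflammatory monocytes it had -0.16 with an adjusted p of 0.69 by DESeq2 in the authors' deposited table. The size of a difference between subsets was not tested. Between TAM and granulocytes the difference of log2 fold changes was wider for Fosl2 (1.95) than for Atf3 (1.63).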

How the results depend on the processing

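No paired analysis was possible because the authors' deposited tables hold no values of single libraries, so leaving out a tumour, another normalisation and a replicate block were not run. Changes of threshold, of adjustment or of scale cannot change a sign, and fold and Wald signs agreed for all 30 member values. Re-centring on the median gene can change a sign. It kept all but that of Batf in TAM, whose Wald statistic near 0 turned negative (adjusted p = 0.996 by Benjamini-Hochberg, main 0.90). At an adjusted p under 0.01, granulocytes kept 3 AP-1 genes lower and 0 higher. At that threshold 0 AP-1 genes were opposite between TAM and granulocytes, while 5 of all genes tested were. At an adjusted p under 0.1, 1 AP-1 gene was lower in inflammatory monocytes (Fosl1). When a change of at least 1 on the log2 scale was also required, 1 AP-1 gene was lower in granulocytes and 5 were higher in TAM, without Jun and Atf3. After division by the robust SD, 0 AP-1 genes were higher in TAM, 0 were in granulocytes and 0 in inflammatory monocytes, and 0 were lower in granulocytes. That setting left 0 genes of all tested in TAM and granulocytes. Benjamini-Hochberg adjustment without the authors' filter on low means lost Junb in granulocytes. The cause of the other changes was not tested. Library depth is unknown, and a weak change of Fosl1, at a mean count of 161, could have been missed.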
